A study of Mus musculus with 6 samples.

Results

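The lipid droplet coat and lipolysis genes were 10 genes, chosen by name: the perilipins Plin2, Plin3, Plin4 and Plin5, the lipases Pnpla2, Lipe and Mgll, and the lipase regulators Abhd5, G0s2 and Hilpda. All 10 had a row in the deposited table of 16289 genes, and all 10 passed the filter on low counts. They were measured by RNA-seq as read counts per gene in whole tibialis anterior, which lifts the foot, from wildtype male C57BL/6J mice aged 12 weeks. Both groups received a glycerol injection into the muscle, which destroys fibres and is followed by regeneration with fat deposits, and all muscles were taken 14 days later. The glycerol group (3 mice) had glycerol injection with a control treatment, and the glycerol+melatonin group (3 mice) had glycerol injection with melatonin, the night-time hormone made by the pineal gland. Each library held from 39310361 to 48879045 counts. The sources used here do not name the control treatment, nor the dose, route and timing of melatonin. The labels give the tissue as tibialis anterior while their extraction text names a back muscle. Muscle fibre transcripts dominated every library (Acta1, skeletal actin, from 24030 to 41229 CPM, counts scaled to a common library size with TMM factors), which both muscles would show.

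A lipid droplet is a core of triglyceride and sterol esters under a single layer of phospholipid, and perilipins coat that layer and govern access of lipases to the core. Lipolysis runs in steps: Pnpla2 encodes adipose triglyceride lipase, which removes the first fatty acid, Lipe encodes hormone-sensitive lipase, which acts mainly on diacylglycerol, and Mgll encodes monoacylglycerol lipase, which releases the last fatty acid and glycerol. Abhd5 (also called CGI-58) activates Pnpla2, while the small proteins of G0s2 and Hilpda inhibit it. In skeletal muscle these droplets supply fatty acids to mitochondria, with Plin5 placed where droplets and mitochondria touch, and in glycerol-injured muscle they also fill the fat cells that appear between fibres.

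No member passed the test for a difference between the groups. In the quasi-likelihood test of edgeR, adjusted by Benjamini-Hochberg over 16259 genes, 0 of 10 members passed at an adjusted p under 0.05, where 0.0738% of all genes did (12 genes). At an unadjusted p under 0.05 there was 1 member of 10 (Abhd5), where 19.5% of all genes were under that value, 10.1% being higher and 9.39% lower with melatonin. DESeq2 called 0 of 10 members (5.01% of the genes it tested), limma-voom 0 of 10 (0.0738%) and limma-voom with sample weights 0 of 10 (1.22%). Of the members, 5 were above and 5 below 0 (51.7% of all genes were above), with a median log2 fold change of 0.01 (0.02 over all genes) and a range from -0.60 for Plin5 to 0.63 for Hilpda. In CPM scaled with TMM factors, the groups did not overlap for 1 member (26.0% of all genes). This was again Abhd5, lower with melatonin in all 3 mice (12.5% of all genes were lower and 13.6% higher without overlap). By library size alone its groups overlapped. The precision allowed by 3 mice per group differed widely between members, as the 95% intervals below show. In whole muscle, fewer cells of a type and less RNA per cell cannot be told apart.

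**Figure D1:**
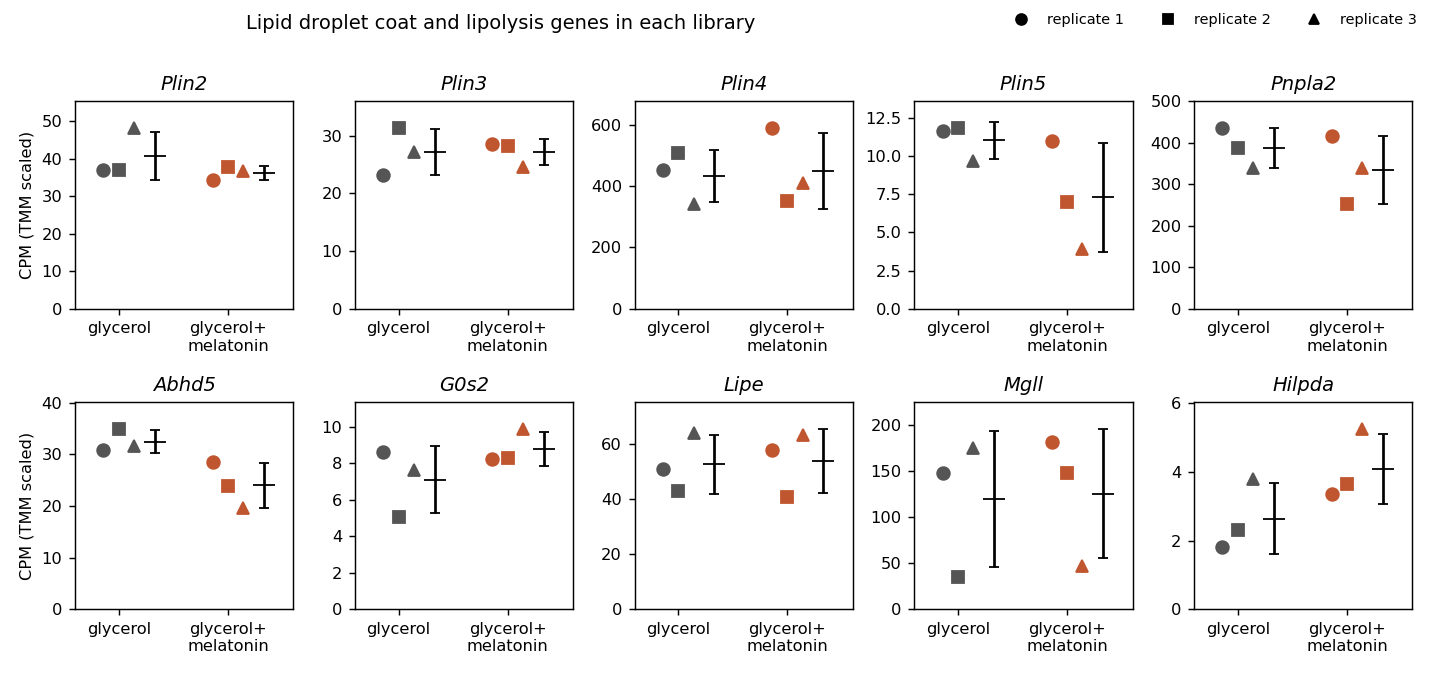
Expression of the 10 genes in CPM (TMM scaled, axes from 0) in the 3 glycerol and 3 glycerol+melatonin libraries, with replicates by symbol and the mean ± SD beside them. Only for Abhd5 do the 6 points separate by group, and for Mgll glycerol replicate 2 and glycerol+melatonin replicate 3 lie far below the other libraries.

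Levels between genes were compared as CPM per kilobase of the longest annotated transcript. Pnpla2 had the highest mean level over the 6 libraries, 137.7 CPM per kilobase, which was above 97.7% of the 16230 genes with a length. Plin4 followed at 76.8 (above 96.3%), Mgll at 30.7, Plin2 at 20.4 and Lipe at 14.4. The regulators and the remaining perilipins were less abundant: G0s2 at 9.14, Abhd5 at 8.95, Plin3 at 7.46, Plin5 at 4.61 and Hilpda at 3.43 CPM per kilobase. Some neighbours in this order differed in every library, since Pnpla2 exceeded Plin4, Plin4 exceeded Mgll, Plin2 exceeded Lipe, Lipe exceeded G0s2 and Plin3 exceeded Plin5 in 6 of 6. For Mgll over Plin2, G0s2 over Abhd5, Abhd5 over Plin3 and Plin5 over Hilpda the higher gene led in 4 of 6 libraries, so these neighbours did not differ beyond their spread. With the union of all exons as the length, G0s2 (9.14) stood above Lipe (9.07) and Plin3 (7.18) above Abhd5 (4.74).

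Plin2 encodes the perilipin found on droplets of most cell types, which rises with their fat load. It was at 37.0, 37.0 and 48.1 CPM in glycerol replicates 1 to 3 and at 34.3, 37.9 and 36.9 CPM in glycerol+melatonin replicates 1 to 3. Glycerol replicate 3 was the highest and the groups overlapped. The log2 fold change was -0.16 ± 0.16 (SE, n = 3 per group; edgeR adjusted p = 0.581), with a 95% interval from -0.52 to 0.19. Without glycerol replicate 3 the value was -0.022, and scaled by library size alone it was 0.04 while the median of all genes moved to 0.23. The gene (ENSMUSG00000028494) lies on chromosome 4 from 86648386 to 86670060 of GRCm38.

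Plin3, whose protein is soluble and moves onto young droplets, was at 23.2, 31.3 and 27.2 CPM in the glycerol libraries and at 28.6, 28.3 and 24.6 CPM in the others. The groups overlapped almost fully and the means were 27.2 ± 4.04 and 27.2 ± 2.25 CPM (SD, n = 3). Its log2 fold change of -0.0024 ± 0.16 (edgeR adjusted p = 0.994) had an interval from -0.38 to 0.37. Plin3 (ENSMUSG00000024197) is on chromosome 17 from 56277476 to 56292873, the same chromosome as Plin4 and Plin5.

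Plin4, a perilipin of fat cells and of muscle, was the most abundant perilipin per length in all 6 libraries. Its levels were 451.5, 508.9 and 340.6 CPM in glycerol and 588.1, 352.8 and 408.8 CPM in glycerol+melatonin. The lowest value was in glycerol replicate 3 and the highest in glycerol+melatonin replicate 1, so the groups overlapped. The log2 fold change was 0.05 ± 0.24 (edgeR adjusted p = 0.926, interval -0.50 to 0.61), and it was -0.19 without glycerol+melatonin replicate 1, -0.090 without glycerol replicate 3 and -0.089 by limma-voom with sample weights. Plin4 (ENSMUSG00000002831) lies on chromosome 17 from 56100591 to 56109803 and shares 17 exon bases with Hdgfl2 on the other strand.

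Plin5, the perilipin of oxidative tissues, had the lowest fold change of the 10. It was at 11.6, 11.8 and 9.63 CPM in the glycerol mice, against 10.99, 6.98 and 3.91 CPM with melatonin. Replicate 1 of the melatonin mice lay inside the glycerol range, and replicates 2 and 3 lay below it. The means were 11.01 ± 1.20 and 7.29 ± 3.55 CPM. The difference of -0.60 ± 0.33 on the log2 scale (edgeR adjusted p = 0.352) came with an interval from -1.36 to 0.17. The value rested on single mice: it was -1.01 (edgeR adjusted p = 0.149) without glycerol+melatonin replicate 1 and -0.29 without replicate 3. Plin5 (ENSMUSG00000011305) is on chromosome 17 from 56111601 to 56117596.

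As shares of the Plin2 to Plin5 total per kilobase, a measure within each library that does not depend on scaling between libraries, Plin4 held 68.1% ± 6.16 in glycerol and 71.4% ± 5.12 in glycerol+melatonin (SD, n = 3). Plin2 held 20.02% ± 5.50 and 18.3% ± 4.21, and Plin3 6.82% ± 0.970 and 7.02% ± 1.27. The share of Plin5 was 5.30, 4.85 and 4.999% in the glycerol mice and 4.14, 3.79 and 1.99% in the melatonin mice. These Plin5 shares did not overlap between groups. The two-sided exact permutation p for the Plin5 share was 0.1, the smallest that 3 against 3 mice can give, and 0.771 adjusted over the 9 ratios computed, while the other 3 shares had exact p from 0.6 to 0.9.

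**Figure D2:**
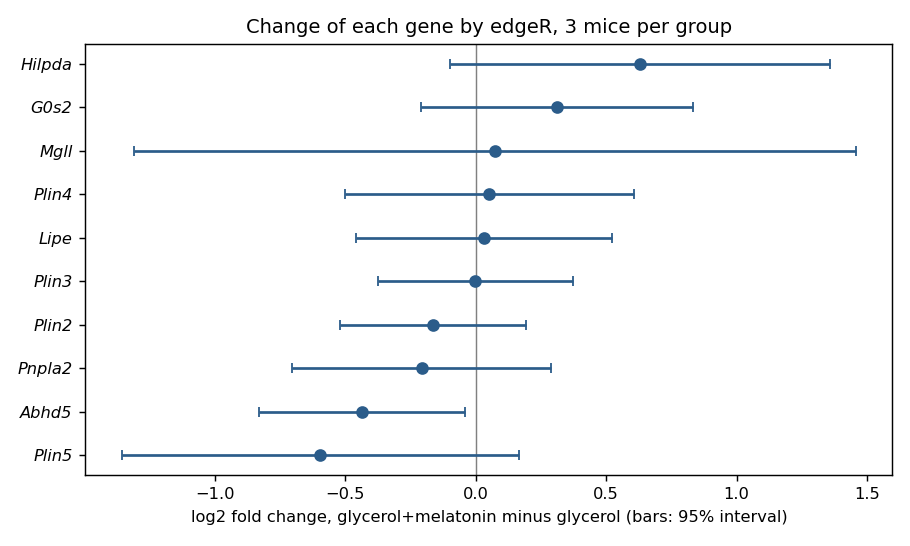
The log2 fold change of each gene, glycerol+melatonin minus glycerol, by edgeR with its 95% interval (n = 3 mice per group). Intervals of 9 genes include 0, that of Abhd5 runs from -0.83 to -0.04 before any adjustment, and that of Mgll is the widest.

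Pnpla2, the triglyceride lipase, was at 435.0, 387.4 and 339.8 CPM in the glycerol mice, against 415.8, 251.6 and 339.2 CPM with melatonin. Replicate 2 of the melatonin mice was the lowest library, and the groups overlapped. For Pnpla2 the log2 fold change was -0.21 ± 0.22 (edgeR adjusted p = 0.616, interval -0.70 to 0.29). It was -0.036 without glycerol+melatonin replicate 2 and -0.39 without replicate 1. Pnpla2 (ENSMUSG00000025509) lies on chromosome 7 from 141455198 to 141460743. Plin4 and Pnpla2 tended to be high in the same libraries, with a Pearson r of 0.74 over the 6 libraries in log2 CPM, given as a description only.

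Abhd5, the activator of Pnpla2, was the member with the smallest p. It was at 30.8, 34.9 and 31.7 CPM in the glycerol mice, against 28.5, 23.8 and 19.7 CPM with melatonin. With these TMM factors every melatonin mouse was below every glycerol mouse. By library size alone the groups overlapped: glycerol replicate 1 held 1246 of 46569255 counts and glycerol+melatonin replicate 1 held 1248 of 45261264. The means were 32.5 ± 2.18 and 24.0 ± 4.405 CPM, 1.35-fold lower with melatonin, and the log2 fold change was -0.44 ± 0.17 (interval -0.83 to -0.04) with an unadjusted edgeR p of 0.0338 and an adjusted p of 0.225. Over the other tools and settings, leaving out single mice included, the edgeR, DESeq2 or limma adjusted p of Abhd5 ran from 0.120 to 0.532 and the fold change stayed below 0, at -0.24 when scaled by library size alone. Abhd5 (ENSMUSG00000032540) lies on chromosome 9 from 122351608 to 122381524. It shares 950 exon bases with the antisense gene A730085K08Rik, for which no counts were analysed here, so reads of the pair could not be separated. Its level relative to Pnpla2, per kilobase, was 0.0705 ± 0.0102 in glycerol and 0.0613 ± 0.0157 in glycerol+melatonin (two-sided exact permutation p = 0.5, adjusted p = 0.771).

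Abhd5 and Plin5 ran together across the 6 mice (Pearson r = 0.94 in log2 CPM), and Hilpda ran against both (-0.75 with Abhd5 and -0.81 with Plin5). So did G0s2 (-0.76 with Abhd5 and -0.60 with Plin5). Other pairs of members had coefficients of like size, such as G0s2 with Plin3 (-0.77) and Plin2 with Plin4 (-0.74). These 6 libraries share the group difference and the depth of sequencing, so the coefficients describe this set of mice only. By likeness of profile over the 6 libraries, the genes closest to Abhd5 were Kifap3, a kinesin adaptor gene (r = 0.999), the cytochrome P450 gene Cyp4f39 (0.997) and Scn4b, a sodium channel subunit gene (0.996). As many as 327 genes had r over 0.95 with Abhd5. Scn4b went over a wider range, from 349.2 CPM in glycerol replicate 2 to 89.6 CPM in glycerol+melatonin replicate 3 (log2 fold change -0.97, edgeR adjusted p = 0.172). Summed levels of the 14 muscle fibre markers overlapped between groups, from 151000 to 180600 CPM in glycerol and from 109100 to 165200 CPM in glycerol+melatonin, lowest in glycerol+melatonin replicate 3, and their part in the levels of Abhd5 and Plin5 was not tested.

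**Figure D3:**
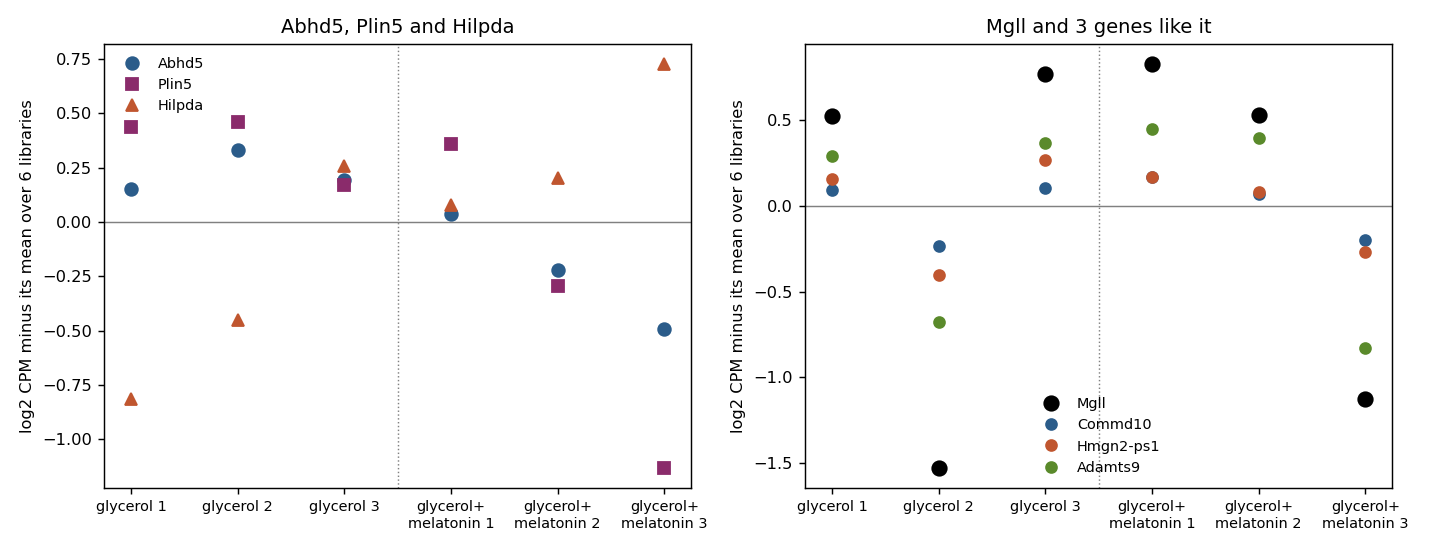
Log2 CPM of single genes minus their mean over the 6 libraries, by library, with a dotted line between the groups. At left Abhd5 and Plin5 are lowest and Hilpda is highest in glycerol+melatonin replicate 3, and at right Mgll and the 3 genes most like it (Commd10, Hmgn2-ps1 and Adamts9, picked after the values of Mgll were seen) are lowest in glycerol replicate 2 and glycerol+melatonin replicate 3.

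The stretches of promoter before Plin5, Abhd5, Hilpda and Mgll are shown because the levels of the former 3 ran together or against each other across mice and Mgll varied most. They are RefSeq sequences of GRCm38.p6, ending where the GENCODE gene model starts, in the direction of transcription. Capitals mark AGGTCA (the half-site of nuclear receptors such as the PPARs) and ACGTG, on either strand. ACGTG is a form of the core of the hypoxia response element and also part of the E-box CACGTG. The other form of that core, GCGTG, was neither searched nor marked.
Plin5, chr17:56117597-56117798, minus strand: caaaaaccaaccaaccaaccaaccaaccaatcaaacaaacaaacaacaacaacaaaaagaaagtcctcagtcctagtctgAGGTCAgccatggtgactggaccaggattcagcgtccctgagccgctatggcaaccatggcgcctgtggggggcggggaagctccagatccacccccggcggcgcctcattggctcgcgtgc
Abhd5, chr9:122351366-122351607, plus strand: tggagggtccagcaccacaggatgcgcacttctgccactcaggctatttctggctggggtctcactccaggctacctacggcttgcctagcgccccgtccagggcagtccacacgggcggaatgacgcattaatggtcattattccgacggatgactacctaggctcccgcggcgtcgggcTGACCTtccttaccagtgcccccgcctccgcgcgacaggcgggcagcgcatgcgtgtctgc
Hilpda, chr6:29272238-29272487, plus strand: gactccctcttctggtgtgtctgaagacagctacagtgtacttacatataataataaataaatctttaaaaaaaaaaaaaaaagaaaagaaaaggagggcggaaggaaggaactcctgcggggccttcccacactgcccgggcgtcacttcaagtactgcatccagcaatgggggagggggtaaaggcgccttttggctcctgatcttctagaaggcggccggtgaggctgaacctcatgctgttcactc
Mgll, chr6:88724162-88724411, plus strand: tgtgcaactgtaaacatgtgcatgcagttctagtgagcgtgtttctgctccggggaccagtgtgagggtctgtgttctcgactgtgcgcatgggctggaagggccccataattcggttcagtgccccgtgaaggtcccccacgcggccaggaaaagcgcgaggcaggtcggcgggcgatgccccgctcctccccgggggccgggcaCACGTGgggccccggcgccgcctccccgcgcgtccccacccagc

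Motifs were counted in the 250 bases before each annotated start, 14 windows for the 10 members and 32851 windows in all. AGGTCA was found for 3 members, Plin2, Plin5 and Abhd5 (3 of 14 windows, where 14.0% of all windows hold it). ACGTG was found for Lipe, Mgll and Hilpda (4 of 14 windows, 16.6% of all), in Hilpda only before the second of its annotated starts and not in the stretch shown. CACGTG was found for Lipe and Mgll (2 of 14 windows, 6.02% of all). The full PPAR element, a direct repeat of AGGTCA spaced by 1 base, was in 0 of 14 windows and in 0.0335% of all. A match is a description of the letters and not a site of binding. The Mgll stretch overlaps an exon of Gm26588, a non-coding gene on the other strand.

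Hilpda, an inhibitor of Pnpla2 that is induced by hypoxia and by fatty acids, had the highest fold change of the members. It was the least abundant, at 1.80, 2.33 and 3.80 CPM in the glycerol mice, against 3.36, 3.65 and 5.26 CPM with melatonin, from 73 to 247 counts per library. Glycerol replicate 3 lay among the melatonin mice, so the groups overlapped. The means of 2.64 ± 1.03 and 4.09 ± 1.02 CPM differed by 0.63 ± 0.32 on the log2 scale (edgeR adjusted p = 0.314, interval -0.10 to 1.36). Without glycerol replicate 3 it was 0.99 (edgeR adjusted p = 0.126), without glycerol replicate 1 it was 0.42, and without glycerol+melatonin replicate 3 it was 0.41. After a correction for transcript length it was 0.39. Hilpda (ENSMUSG00000043421) lies on chromosome 6 from 29272488 to 29275446. Its closest genes by profile were Rgs11, a regulator of G protein signalling (r = 0.992 over 6 libraries), Abtb1 (0.990) and the non-coding RNA gene Gas5 (0.988), among 117 genes with r over 0.95.

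G0s2, the other inhibitor of Pnpla2 and a target of PPARs in fat and liver, was at 8.62, 5.07 and 7.62 CPM in the glycerol mice, against 8.22, 8.32 and 9.89 CPM with melatonin. Glycerol replicate 2 was the lowest library, while glycerol replicate 1 lay above a pair of melatonin mice. The log2 difference was 0.31 ± 0.23 (edgeR adjusted p = 0.464, interval -0.21 to 0.83). It was 0.12 without glycerol replicate 2, 0.48 without glycerol replicate 1, and 0.03 after the correction for transcript length. With 871 and 982 bases, G0s2 and Hilpda have the shortest transcripts of the 10. G0s2 (ENSMUSG00000009633) lies on chromosome 1 from 193272161 to 193273217. Per kilobase, the ratio of G0s2 to Pnpla2 was 0.0556 ± 0.0145 in glycerol and 0.0824 ± 0.0206 in glycerol+melatonin (two-sided exact permutation p = 0.3), and that of Hilpda to Pnpla2 was 0.0190 ± 0.00974 and 0.0339 ± 0.0108 (two-sided exact permutation p = 0.2), each with an adjusted p of 0.771 over the 9 ratios.

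Lipe, hormone-sensitive lipase, was at 51.2, 42.9 and 64.2 CPM in the glycerol mice, against 57.7, 41.0 and 63.2 CPM with melatonin. Both groups spanned nearly the same range. Its log2 fold change of 0.03 ± 0.21 (edgeR adjusted p = 0.949) had an interval from -0.46 to 0.52, and it was 0.20 without glycerol replicate 3 and -0.096 without glycerol replicate 2. Lipe (ENSMUSG00000003123, chromosome 7 from 25379527 to 25398710) shares 918 exon bases with the antisense gene 4732471J01Rik, and the summed counts gave the same 0.03.

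Mgll, monoacylglycerol lipase, varied most between mice of a group. It was at 147.4, 35.6 and 174.9 CPM in the glycerol mice, against 181.7, 147.7 and 47.0 CPM with melatonin. One mouse of each group, glycerol replicate 2 and glycerol+melatonin replicate 3, was far below the rest, and the highest library was 5.11-fold above the lowest (1.35-fold to 3.01-fold for the other members). The coefficients of variation were 61.9% and 55.8%. The log2 fold change of 0.07 ± 0.61 (edgeR adjusted p = 0.959) therefore had an interval from -1.31 to 1.46, and it was -0.36 without glycerol replicate 2 and 0.47 without glycerol+melatonin replicate 3. Mgll (ENSMUSG00000033174) lies on chromosome 6 from 88724412 to 88828360. It shares 167 exon bases with the antisense gene Gm26588, for which no counts were analysed here, so reads of that pair could not be separated.

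Mature fat cells, which appear in glycerol-injured muscle and express most of these genes strongly, have markers whose levels differed between mice of both groups. The adipokine gene Adipoq read at 10.6, 5.18 and 37.8 CPM in the glycerol mice, against 18.4, 9.65 and 6.02 CPM with melatonin, highest in glycerol replicate 3, as were Plin2 and Lipe. Mgll was highest in the same pair of libraries as Adipoq, glycerol replicate 3 and glycerol+melatonin replicate 1, and also lowest in the pair with its lowest or second lowest Adipoq, while Plin4 was lowest in glycerol replicate 3. Of 18 fat cell markers, 16 were tested and 0 passed (3 above 0, 13 below), none tested was at 0 in any library, and their summed level ran from 4245 to 6195 CPM in glycerol and from 3605 to 4807 CPM in glycerol+melatonin. Most of that sum was Car3, with Gpd1 and Lpl, which muscle expresses too. Markers of macrophages (14, from 1112 to 1508 and from 1156 to 1261 CPM) and endothelium (9, from 1107 to 1290 and from 1168 to 1783 CPM) overlapped between the groups in their sums. Most of the macrophage sum was Apoe and Lpl (means of 457 and 429 CPM in glycerol), so it says little about the other macrophage markers. Of the 14, 6 were above and 8 below 0. By edgeR 0 of the 9 endothelial markers passed, with 6 above and 3 below 0. At an unadjusted edgeR p under 0.05, 3 were higher (10.1% of all genes). The groups did not overlap for 2, both higher with melatonin (13.6% of all genes): Egfl7 at 0.75 and Esam at 0.64 on the log2 scale. These were picked after their values were seen. The 3 most abundant endothelial markers overlapped between the groups, with Cdh5 at -0.16, Pecam1 at 0.06 and Tie1 at 0.23. With these TMM factors, markers of fibro-adipogenic progenitors did not overlap in their sums, being lower with melatonin (11, from 7163 to 8222 and from 5308 to 6305 CPM). By library size alone these sums overlapped, the TMM factor being 0.869 for glycerol replicate 1 and 1.13 for glycerol+melatonin replicate 2. Most of that sum was Col3a1 and Col1a1 (means of 3597 and 2400 CPM in glycerol), which each overlapped between the groups. In TMM-scaled CPM the groups did not overlap for 5 of the 11 markers, all lower (12.5% of all genes). By library size alone some of these 5 overlapped. By edgeR 0 of the 11 passed, and 5 were lower at an unadjusted p under 0.05 (9.39% of all genes). The part of any of these cells in the members' values was not tested.

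Other genes of droplets and lipolysis, from lists written with earlier results of these data known, gave no gene that passed. Of 22 other droplet proteins, 6 were above and 16 below 0, with a median log2 fold change of -0.20, and 6 were lower at an unadjusted edgeR p under 0.05 (9.39% of all genes). That median was -0.11 without glycerol replicate 3. The smallest p were those of the lipid transfer proteins Vps13a (-1.001 ± 0.20, edgeR adjusted p = 0.122) and Vps13c (-0.87 ± 0.19, edgeR adjusted p = 0.132) and of Spg20, which encodes the droplet protein spartin (-0.50 ± 0.15, edgeR adjusted p = 0.164). Vps13a went from 11.3, 11.4 and 8.72 CPM to 6.26, 4.91 and 4.55 CPM. Among 14 other lipid hydrolases, 4 were above and 10 below 0 (median -0.19, and -0.12 without glycerol+melatonin replicate 1), led by the phospholipase Pnpla8 (-0.85 ± 0.22, edgeR adjusted p = 0.144), by Pnpla3, a relative of Pnpla2 (1.02 ± 0.30, edgeR adjusted p = 0.164), and by the carboxylesterase Ces1d (-1.97 ± 0.59, edgeR adjusted p = 0.170). Pnpla3 was at 9.07, 21.2 and 13.5 CPM in the glycerol mice, against 30.4, 24.1 and 34.7 CPM with melatonin, with no overlap.

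Of 23 genes that carry hormone signals to lipolysis, 9 were above and 14 below 0 (median -0.20), and 6 were lower at an unadjusted edgeR p under 0.05 (9.39% of all genes). The median was -0.0996 without glycerol replicate 3, -0.11 without glycerol replicate 2 and -0.31 without glycerol+melatonin replicate 1. The cGMP-dependent kinase Prkg1 was at 4.35, 6.24 and 3.60 CPM in the glycerol mice, against 1.32, 1.07 and 1.04 CPM with melatonin (-2.05 ± 0.28, edgeR adjusted p = 0.0571). The adenylyl cyclase Adcy9 was at 10.2, 12.1 and 7.10 against 2.33, 3.30 and 2.15 CPM (-1.92 ± 0.27, edgeR adjusted p = 0.0618), and the insulin receptor Insr was at -1.04 ± 0.26 (edgeR adjusted p = 0.141). The groups did not overlap for any of these 3 genes, which were picked for their small p. Over the 23 genes the groups did not overlap for 4 lower and 1 higher with melatonin (12.5% and 13.6% of all genes).

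PPAR targets of muscle, the genes that fatty acids switch on through nuclear receptors, had 2 of 22 above and 20 below 0, with a median of -0.48 beside 0.02 over all genes. The median was -0.32 without glycerol+melatonin replicate 3 and -0.58 without glycerol+melatonin replicate 1. None of the 22 passed over all genes by edgeR, and 9 were lower at an unadjusted p under 0.05 (9.39% of all genes). Among those with the smallest p were the fatty acid activating enzyme Acsl1 (-1.42 ± 0.31, edgeR adjusted p = 0.132) and the kinase Pdk4 (-0.92 ± 0.28, edgeR adjusted p = 0.173). Of the 10 members, only Plin5 (-0.60), a known PPAR target, lay below the median of -0.48. Plin2 (-0.16) and G0s2 (0.31), also known PPAR targets, lay above it, as did Hilpda (0.63). The receptor gene Ppard was at 52.6, 51.0 and 43.5 CPM in the glycerol mice, against 38.6, 32.1 and 38.2 CPM with melatonin (-0.43 ± 0.15, edgeR adjusted p = 0.192). Ppara was low, at 0.931 to 3.73 and 0.511 to 1.13 CPM (-1.49 ± 0.52, edgeR adjusted p = 0.194), and Pparg was at 0.06 ± 0.19. Gpam, which starts the synthesis of the triglyceride that droplets store, was the 1 gene named here that passed (-2.13 ± 0.21, edgeR adjusted p = 0.0148).

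Hypoxia-inducible genes, the other class to which Hilpda belongs, were divided, with 9 of 19 above and 10 below 0. Their median of -0.04 took the other sign, at 0.02, without glycerol replicate 1, glycerol replicate 2 or glycerol+melatonin replicate 2. The growth factor gene Vegfa was at 163.1, 201.7 and 145.3 CPM in the glycerol mice, against 273.8, 348.1 and 278.3 CPM with melatonin (0.82 ± 0.19, edgeR adjusted p = 0.134). Ankrd37 was at 0.72 ± 0.27 (edgeR adjusted p = 0.208) and Mxi1 at -0.57 ± 0.20 (edgeR adjusted p = 0.193), so the 3 genes with the smallest p did not share a sign. Scaled by library size alone, the median of all genes moved from 0.02 to 0.23, and the medians of the lists moved with it, to 0.18 for the hypoxia genes, 0.03 for the hydrolases, 0.0073 for the signalling genes, -0.024 for the droplet proteins and -0.28 for the PPAR targets. All 5 medians stayed below that of all genes, but this scaling moves all genes nearly alike, so it could hardly change that order. Without glycerol replicate 1, the hypoxia median was 0.019 beside 0.017 over all genes. It was 0.018 beside 0.011 without glycerol replicate 2 and 0.021 beside 0.0082 without glycerol+melatonin replicate 2.

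**Figure D4:**
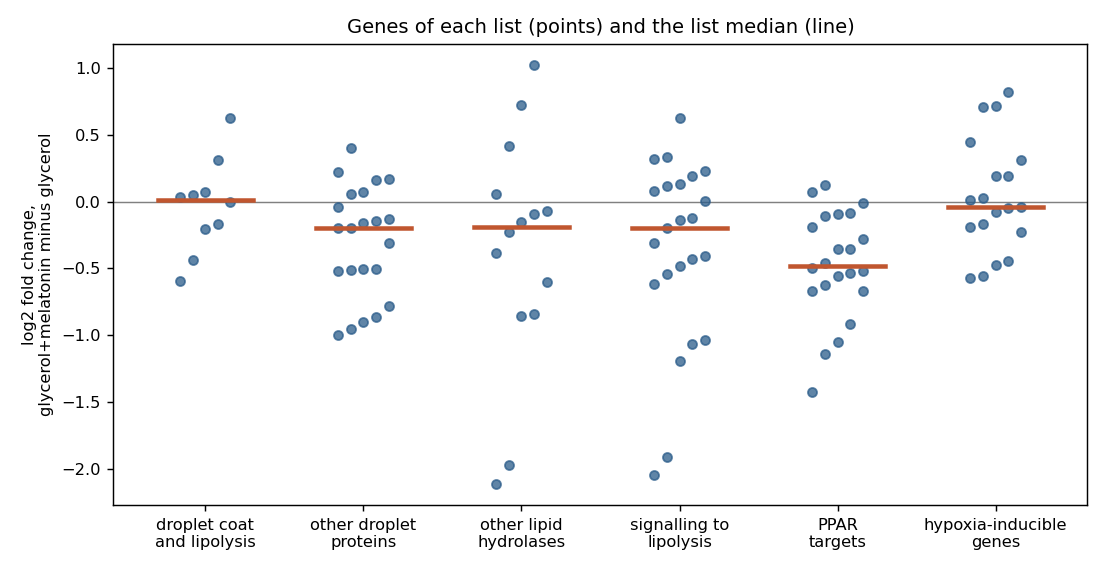
Log2 fold changes (glycerol+melatonin minus glycerol, edgeR) of each tested gene in the 6 lists, with the median of each list as a line. The 10 droplet coat and lipolysis genes spread evenly around 0 (median 0.01), and the PPAR targets lie lowest (median -0.48).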

How the data were processed

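The deposited values are raw counts of reads for each Ensembl gene, in 1 table with 6 libraries. The submitters' processing notes name mm10 as the build and list HISAT2 2.0, StringTie 1.3.3b, Trimmomatic 0.36, FastQC 0.11.2, DESeq2 1.12.4 and bedtools 2.26.0. The counting tool, its annotation, its use of strand and its handling of multi-mapping reads are not stated there, so reads of overlapping antisense genes may be mixed. Total counts ran from 39310361 to 48879045 per library. Replicates differed by more than sampling noise, with chi-square values of 66.6 to 182.3 for each degree of freedom. The 3 samples of a group are called biological replicates by the series' text.

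Members were matched by symbol through Ensembl identifiers, and positions, exons and transcript lengths came from GENCODE M21 (GRCm38, the assembly of mm10). Counts were tested with edgeR 4.0.16 (R 4.3.3; TMM, filterByExpr, no covariate), with adjusted p over all 16259 genes kept. SE is the log2 fold change divided by the square root of F. Within-library ratios were tested with exact permutation. Alternatives used DESeq2 1.42.0 and limma 3.58.1, other scalings and filters, a replicate block, a length correction (spline, 4 degrees of freedom) and leaving out each library. Profiles were compared on log2 CPM with a prior count of 2. The scripts were tested on simulated counts.

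The members, lists and tests were chosen with earlier results of these data known. Named genes were all members, the 3 smallest p of each pathway list (1 of them is not reported here), PPAR genes, Gpam, and the 3 genes most like each of the 2 members with the smallest p, leaving out gene models without a symbol of their own. Of cell type markers, the 3 most abundant of a list could be named. Adipoq, Egfl7, Esam and Mgll's neighbours were chosen after their values were seen.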

Additional observations from a re-analysis of the deposited data

How the results depend on the processing

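No member passed under any of the 16 other fits, in which 0 to 752 genes passed overall. DESeq2 called 752 genes, limma-voom with sample weights 199 and the fit with the length correction 7, against 12; leaving out each library gave 6 (without glycerol replicate 1) to 27 (without glycerol replicate 3). With the replicate number as a block, 0 genes passed (18.4% of genes at an unadjusted edgeR p under 0.05) and 0 of the 12. The labels do not say that the numbers mark shared litters or days. Deviations of same-numbered libraries correlated at -0.015, 0.0043 and -0.048, and 0 of 6 libraries correlated best with their own number. With 3 mice per group these values cannot decide whether mice were paired.

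Members near 0 took the other sign. Plin3 was at 0.20 by library size alone, 0.031 by upper quartile factors, 0.0094 with the 1 CPM filter, 0.0044 by limma-voom, 0.046 with sample weights, 0.0044 with the block and 0.078 with the length correction. Plin2 was at 0.038 by library size alone, and with sample weights Plin4 was at -0.089 and Lipe at -0.029. Leaving out each mouse gave Plin3 -0.10 to 0.11, Plin4 -0.19 to 0.20, Lipe -0.096 to 0.20 and Mgll -0.36 to 0.47. Log2 differences of ratios ran from -0.34 to 1.01 for Mgll over Pnpla2, -0.27 to 0.090 for the share of Plin2, -0.10 to 0.16 for Plin3 and -0.0080 to 0.12 for Plin4. The cause was not tested. Plin5, Pnpla2, Abhd5, G0s2 and Hilpda kept their sign under each alternative run, though Pnpla2 was close to 0, at -0.0022, by library size alone. Summing members with a same-strand neighbour was not run, as none shares exon bases. Replicates differed by more than counting noise, so 3 mice per group limit these comparisons, and depth bears most on Hilpda, with 73 counts in its lowest library.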

Other observations

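The profile of Mgll was followed further because its level differed so much between mice of a group, a choice made after its values were seen. Over the 6 libraries the genes with the most similar log2 CPM were Commd10, an endosomal sorting gene (r = 0.992), the pseudogene Hmgn2-ps1 (0.985) and Adamts9, a protease of the extracellular matrix (0.9751), and 14 genes had r over 0.95, against 327 for Abhd5 and 117 for Hilpda. Adamts9 was at 20.9, 10.7 and 22.0 CPM in glycerol replicates 1 to 3 and at 23.3, 22.5 and 9.62 CPM in glycerol+melatonin replicates 1 to 3, lowest in the same mice as Mgll. Commd10 was at 7.54, 6.01 and 7.59 against 7.95, 7.44 and 6.17 CPM, a range of 1.32-fold beside 5.11-fold for Mgll.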
